A study of Mus musculus with 6 samples.

Results

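The arrays of the third biological replicate, 1 of control islets and 1 of islets from mice given bisphenol A (BPA), were set against the 4 arrays of the first and second replicates. These 2 of the 6 mouse pancreatic islet arrays were chosen by their position in the same signals that are described here. Control 3 and BPA 3 correlated at 0.993 and had scores of 47.18 and 36.29 on the first principal component, where the other 4 arrays had scores of -37.54 to -3.245. The contrast therefore separates replicates and not treatments, since each side holds both treatments, and every difference in signal between the sides below is a description without a p-value; the array controls, which did not enter the choice, are the exception.

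All mice were OF1 males, an outbred stock, of 10 weeks of age. Controls received corn oil vehicle (100 µL) under the skin, and treated mice received BPA, a plastics monomer with oestrogen-like activity, at 100 µg/kg/day as 2 daily injections of 50 µg/kg. The labels disagree on its length: the design text gives 4 days, the treatment protocol 2 days, while the treated samples are also named as having had 1 nM BPA for 48 hours. Islets were isolated 16 hours after the last injection. Each group had 3 arrays, and a replicate is described as 3 independent experiments, but how many mice stand behind an array is not stated. The labels name the replicates by number alone and record no date, operator or isolation batch, so what the third replicate shares beyond its number was not tested.

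Islets are clusters of endocrine cells embedded in exocrine pancreas, and some acinar cells, which make digestive enzymes, are carried along when islets are isolated. Adult beta cells divide rarely, and genes of mitosis such as Mki67 and Top2a are transcribed in dividing cells of any kind. Nuclear long noncoding RNAs such as Neat1, a scaffold of paraspeckles, and Meg3, an imprinted RNA abundant in beta cells, stay in the nucleus and are not translated.

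The arrays were Affymetrix expression arrays on which a probe set, a group of short probes, reports the signal of a transcript on a log2 scale, so that a difference of 1 is 2-fold. Of the 45037 probe sets that are not array controls, the 22518 with a mean signal above the median (6.605) were kept, and 11787 genes were represented by their brightest kept probe set. Array medians lay between 6.546 and 6.646. Endocrine markers were high on all arrays. Ins2, at 15.24 to 15.32, was the brightest probe set or near it on each array, so its signal says little of differences in amount. The hormones of alpha, delta and PP cells, Gcg, Sst and Ppy, lay at 14.98 to 15.14, 13.66 to 14.04 and 13.87 to 14.79. Irx2 of alpha cells (-0.32) and Hhex of delta cells (-0.35) were lower on both replicate 3 arrays than on the other 4. The array controls gave no difference between the sides by an exact two-sided permutation test of 2 against 4 arrays, whose smallest p is 0.0667. By this exact permutation test, hybridisation spikes differed by 0.09 (p = 0.8), poly-A spikes by -0.36 (p = 0.533) and the 3′ minus 5′ signals of actin and Gapdh, a sign of RNA quality, by 0.18 (p = 0.6) and 0.01 (p = 1). All 4 adjusted p-values were 1, and with so few arrays such tests cannot show that the sides were alike.

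Within the third replicate, control 3 carried signals that BPA 3 did not. Fabp2, the intestinal fatty acid-binding protein gene, read 10.62 on control 3, 4.63 on BPA 3 and 4.25 to 4.49 on the other 4 arrays. Fabp1, its liver and intestinal relative, read 8.26 on control 3 and 3.62 on BPA 3. Cyp3a11, a drug-metabolising enzyme of liver and gut, read 9.38 and 4.07 on these 2 arrays. The same pattern was found in Lct, the lactase of the intestinal brush border (8.21 and 4.51), Alpi, intestinal alkaline phosphatase (9.42 and 5.75), and Muc2, the goblet cell mucin (8.41 and 5.69). These genes were chosen after their values were seen. They are dim on 5 of 6 arrays, and all 6 lie below the signal filter. A test of whether the replicate 3 difference had another size in the BPA arm than in the control arm (limma, Benjamini-Hochberg adjustment over all 45037 probe sets without the filter) passed 24 probe sets. Of these, 22, from 19 genes, were highest on control 3, with adjusted p from 0.00201 (Fabp2) upwards, and 2 were highest on BPA 3. Control 3 and BPA 3 are single arrays in this test and are assumed to vary like the others. Over all probe sets, control 3 lay at least 2 log2 units above the other 5 arrays at 26 and below them at 9, and BPA 1 lay above them at 21, whereas BPA 3 did so at 1. Values of both arms are therefore given below for the main lists and for many genes, since the BPA arm does not involve control 3. A difference given without arms is the mean of both, and its size can differ between them.

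The first principal component held 55.9% of the variance of the kept probe sets. Of the total sum of squares, the side accounted for 50.4%, treatment for 20.6%, other differences between replicate numbers for 8.73% and the remainder for 20.2%. Across the kept probe sets, the replicate 3 difference in the control arm correlated with that in the BPA arm at 0.706, a value over features that share the arrays chosen for it. Both arms had a higher signal in replicate 3 for 26.9% of genes and a lower one for 43.6%, and the median gene difference was -0.06. Both replicate 3 arrays lay above all 4 others at 3291 probe sets (14.6%) and below them at 4794 (21.3%). A probe set was called when, in addition, the fitted difference with treatment as a covariate was at least 1. By this rule 562 probe sets (2.5%) were called higher and 211 (0.937%) lower. At the level of genes, 1414 (12%) lay above without overlap and 2659 (22.6%) below, and 73 (0.619%) were called higher and 98 (0.831%) lower. The 562 higher calls depended on BPA 3: without that array 320 were made, in the control arrays alone 343 and in the BPA arrays alone 1031. Without control 3, 803 probe sets were called higher and 257 lower. These counts and the 562 are not made under equal conditions. Without 1 of the replicate 3 arrays, a single array has to lie beyond 4 others, and in a single arm beyond 2, so overlap is avoided more easily.

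**Figure D1:**
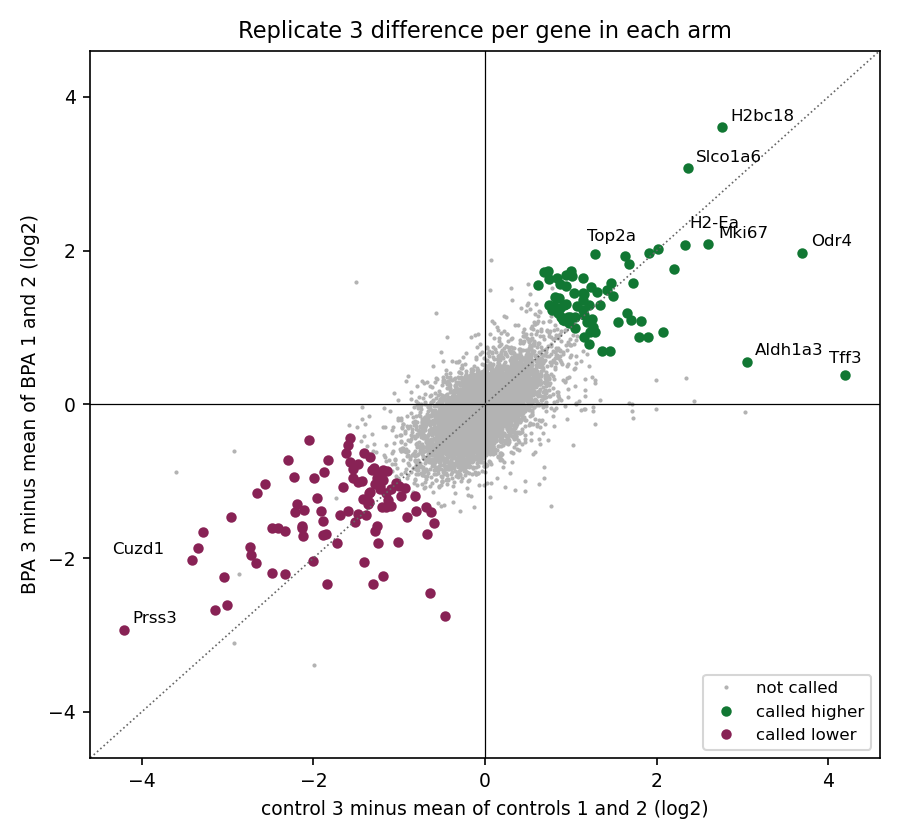
Each point is 1 of 11787 genes, with the log2 difference of control 3 from the mean of controls 1 and 2 on the horizontal axis and that of BPA 3 from the mean of BPA 1 and 2 on the vertical axis. The 73 genes called higher and the 98 called lower are coloured, the dotted line marks equal differences, and Tff3 and Aldh1a3 lie far to the right of it.

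The 5 genes that mark the contrast were read on each array. Mki67, which encodes the Ki-67 antigen of dividing cells, had signals of 7.25, 7.35 and 9.90 in controls 1, 2 and 3 and of 7.81, 7.58 and 9.78 in BPA 1, 2 and 3. The fitted difference was 2.34 ± 0.15 (SE, n = 6 arrays), or 5.08-fold, and the 2 replicate 3 values lay close together above all others. Top2a, the DNA topoisomerase that untangles chromosomes before they separate, read 6.12, 6.13 and 8.14 in controls and 6.28, 6.32 and 8.31 in BPA samples. Its difference was 2.02 ± 0.10 (SE), with nearly equal arms of 2.02 and 2.01. This probe set lay below the signal filter on every array of replicates 1 and 2 and passed it only through its replicate 3 signal. Of the other 2 Top2a probe sets, both too dim for the filter, 1 differed by 0.36 and the other by -0.04.

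Neat1 read 10.30, 10.28 and 12.21 in controls and 10.10, 9.77 and 11.90 in BPA samples, a difference of 1.94 ± 0.12 (SE) or 3.84-fold. A second kept Neat1 probe set differed by only -0.10, so the 2 probe sets of this RNA did not read alike. The brightest Meg3 probe set read 12.32, 12.87 and 13.74 in controls and 11.93, 11.67 and 13.44 in BPA samples, with a difference of 1.39 ± 0.18 (SE). All 10 kept Meg3 probe sets had both replicate 3 arrays above the others, and 9 were called higher. Cuzd1, a zymogen granule protein of acinar cells, was the marker in the other direction. It read 11.56, 12.30 and 8.51 in controls and 13.05, 10.24 and 9.62 in BPA samples, a difference of -2.72 ± 0.72 (SE). Its replicate 3 values lay below all others, but BPA 2 came within 0.62 of BPA 3, and the spread among the other 4 arrays was wide.

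**Figure D2:**
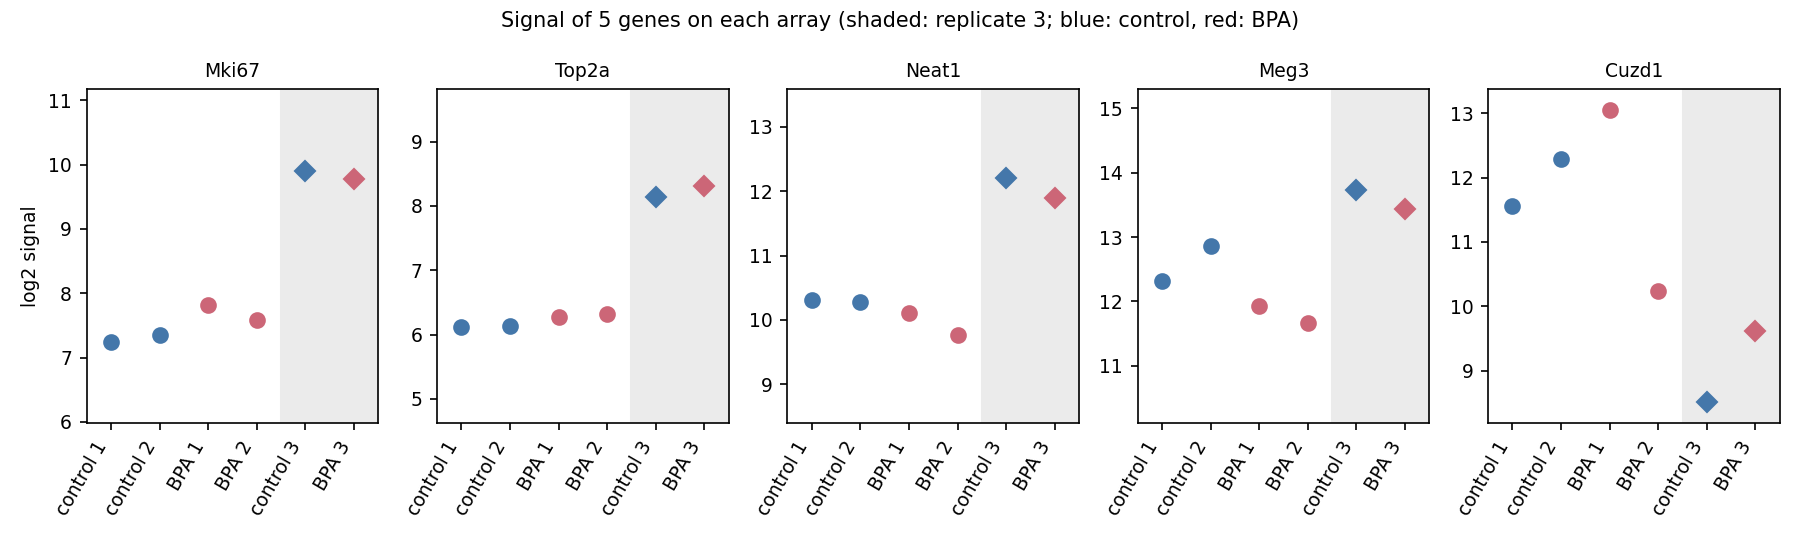
Log2 signal of the brightest kept probe set of 5 genes on each of the 6 arrays, with every panel spanning the same range; replicate 3 is shaded and drawn as diamonds, controls are blue and BPA samples red. Mki67, Top2a, Neat1 and Meg3 were higher and Cuzd1 was lower on both replicate 3 arrays than on the other 4.

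Many genes of mitosis were higher in replicate 3 in both treatments. Of a list of 66 such genes, 36 passed the signal filter; dim genes that pass only through their replicate 3 signal favour a positive median, so the counts describe the 36. Their median difference was 0.50, against -0.06 over all genes, and was 0.53 in the control arm and 0.35 in the BPA arm. The 2 replicate 3 arrays lay above all others at 20 of the 36 and below them at 5 (12% and 22.6% over all genes), and 9 were called higher (0.619% over all genes) and none lower. With no filter the median was 0.34, and with a filter at the 75th percentile of signal it was 0.11. Besides Mki67 and Top2a, the called genes were Pbk, a mitotic kinase (1.98), Cdca8, a subunit of the chromosomal passenger complex (1.78), Cdc20, an activator of the anaphase-promoting complex (1.75), Cks2, a partner of cyclin-dependent kinases (1.45), Cenpf, a kinetochore protein (1.45), Stmn1, a microtubule destabiliser (1.12), and Cdk1, the kinase that drives entry into mitosis (1.03). Cdc20 read 6.88, 6.88 and 8.56 in controls and 6.93, 6.84 and 8.71 in BPA samples. The 2 replicate 3 values thus stood at least 1.63 above every other array, yet the other kept Cdc20 probe sets differed by 0.28 and 0.68. Cdk1 read 6.89, 6.48 and 7.64 in controls and 6.98, 6.67 and 7.93 in BPA samples, without overlap. Among the called genes, Top2a and Cdca8 lay below the filter on every array of replicates 1 and 2. Both passed it only through their replicate 3 signal.

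Other mitosis genes were not higher. Foxm1, a transcription factor of mitotic genes, differed by -0.07, Bub3, a checkpoint protein, by -0.16, and Lmnb1, a nuclear lamin, by -0.43 with both replicate 3 arrays below the others. In whole islet RNA, more dividing cells and more transcript per dividing cell cannot be told apart.

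Promoters of the called mitosis genes are shown because 2 short elements are known in cell cycle promoters, the CCAAT box and the cell cycle homology region, searched here as TTTGAA or TTCGAA. RefSeq sequences (GRCm38.p6) of the 250 bases before the start were at hand for 7 of the 9, and all 7 held CCAAT on either strand, while 4 also held the homology region. These 4 are given 5′ to 3′ on the gene's strand, with both elements in capitals (ATTGG is CCAAT and TTCAAA is TTTGAA on the other strand).

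Mki67, chr7:135716380-135716629, minus strand: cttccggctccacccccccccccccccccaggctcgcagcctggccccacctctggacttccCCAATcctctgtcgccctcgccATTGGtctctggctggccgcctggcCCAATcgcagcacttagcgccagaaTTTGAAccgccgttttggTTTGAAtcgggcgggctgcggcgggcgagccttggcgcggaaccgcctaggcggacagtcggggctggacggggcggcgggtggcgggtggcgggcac

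Top2a, chr11:99024190-99024439, minus strand: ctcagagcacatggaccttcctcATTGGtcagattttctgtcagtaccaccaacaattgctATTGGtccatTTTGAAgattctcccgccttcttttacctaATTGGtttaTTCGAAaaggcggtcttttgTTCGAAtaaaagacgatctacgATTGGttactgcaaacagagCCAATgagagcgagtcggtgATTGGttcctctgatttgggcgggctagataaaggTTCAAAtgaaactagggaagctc

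Cdc20, chr4:118437344-118437593, minus strand: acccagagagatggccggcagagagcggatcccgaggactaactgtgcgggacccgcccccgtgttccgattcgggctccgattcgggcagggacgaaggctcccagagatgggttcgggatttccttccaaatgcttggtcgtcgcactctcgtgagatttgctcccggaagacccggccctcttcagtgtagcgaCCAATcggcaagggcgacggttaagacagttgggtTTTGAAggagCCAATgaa

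Cdk1, chr10:69352913-69353162, minus strand: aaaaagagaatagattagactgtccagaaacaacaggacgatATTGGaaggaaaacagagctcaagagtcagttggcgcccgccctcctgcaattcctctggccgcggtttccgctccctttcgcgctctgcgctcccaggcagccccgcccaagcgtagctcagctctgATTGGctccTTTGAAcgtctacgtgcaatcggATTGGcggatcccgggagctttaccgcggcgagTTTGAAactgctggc

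Top2a held 6 CCAAT boxes and 4 homology regions in this window, Mki67 3 and 2, Cdk1 3 and 2, and Cdc20 2 and 1. Cdca8, Cks2 and Cenpf had CCAAT without the homology region. Of the 27 measured mitosis genes with a promoter, 77.8% held CCAAT and 40.7% both elements. Among the 9536 measured genes with a promoter, 35.7% held CCAAT, 11.7% the homology region and 4.25% both. Among the 49 genes called higher that are not on the mitosis list and have a promoter, the shares were 40.8% and 12.2%, with both in 6.12%. These are letter matches in the window and no evidence of binding.

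Genes of DNA replication had a smaller median difference. Of 47 listed, 30 were measured, with a median difference of 0.15, and none was called (0.619% higher and 0.831% lower over all genes). The replicate 3 arrays lay above the others at 11 of the 30 and below at 1 (12% and 22.6% over all genes). Rrm2, a subunit of the enzyme that makes deoxynucleotides, differed by 0.68 ± 0.18 (SE) and Mcm7, a helicase subunit, by 0.62 ± 0.11 (SE). Pola1, the catalytic subunit of DNA polymerase alpha, went the other way at -0.79 ± 0.12 (SE), and Pcna, the polymerase clamp, differed by -0.21. The median was 0.23 in the control arm and 0.05 in the BPA arm. The 22 measured G1 cyclins and inhibitors had a median of -0.07, with Ezh2, a histone methyltransferase repressed in resting cells, at 0.51 and Bmi1, a Polycomb protein, at -0.51.

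Many of the long noncoding RNAs measured were higher in replicate 3. Of 36 listed, 25 were measured, with a median difference of 0.37 (0.45 in the control arm and 0.34 in the BPA arm). The replicate 3 arrays lay above all others at 14 and below them at 3 (12% and 22.6% over all genes), and 5 were called higher (0.619% over all genes). Beside Neat1 and Meg3 these were Mirg, a microRNA host transcript of the Meg3 locus (1.13), and 2 antisense transcripts of imprinted loci, Kcnq1ot1 (1.12) and Snhg14 (1.05). Mirg read 6.67, 6.90 and 7.97 in controls and 6.83, 7.02 and 8.001 in BPA samples, without overlap. Kcnq1ot1 read 7.83, 8.83 and 9.19 in controls and 7.71, 7.41 and 8.95 in BPA samples, so control 2 came close to the replicate 3 values; its other 2 kept probe sets differed by 1.05 and 1.67. Malat1, a nuclear speckle RNA, differed by 0.92 ± 0.28 (SE) and Airn, the antisense RNA of Igf2r, by 0.92 ± 0.16 (SE). Not every abundant noncoding RNA was higher: Norad, a mostly cytoplasmic RNA, differed by -0.18 and Tug1 by -0.23, both below the other arrays. Rian, which lies beside Meg3, differed by -0.22 in the control arm and 0.67 in the BPA arm. The 24 measured imprinted coding genes had a median of -0.19, with 9 below the other arrays and 1 above (22.6% and 12% over all genes).

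Probe sets without a gene supplied more of the higher calls than those with one. In the platform's annotation, which can be old, 2583 of the kept probe sets had no gene and 19386 had 1 gene. Among those without a gene 286 (11.1%) were called higher and 21 (0.813%) lower, and among those with 1 gene 270 (1.39%) were called higher and 180 (0.929%) lower. Probe sets without a gene made up 50.9% of the higher calls and 9.95% of the lower ones. Within 4 bins of signal that hold equal numbers, from the dimmest to the brightest, 9.44%, 15.5%, 13.9% and 2.19% of the probe sets without a gene were called higher, against 2.31%, 1.96%, 1.04% and 0.431% of those with 1 gene. Lower calls among probe sets without a gene were 0.506%, 0.408%, 1.29% and 2.55%, so in the brightest bin they were as many as the higher ones (7 and 6). Of the 375 kept probe sets of genes that RefSeq classes as long noncoding, 30 (8%) were called higher and none lower, against 1.24% higher and 0.948% lower among 18882 protein-coding ones. These 30 probe sets came from 16 of 299 such genes, with 9 from Meg3 and 3 from Kcnq1ot1. Length of the gene showed no such order, with 0.597%, 0.421%, 0.562% and 0.457% of genes called higher from the shortest to the longest of 4 bins. Higher calls were larger in the BPA arm at 497 of 562 probe sets, with medians of 0.97 in the control arm and 1.58 in the BPA arm. Lower calls went the other way: 139 of 211 were larger in the control arm, with medians of -1.49 and -1.29 in the BPA arm. Over all kept probe sets the medians were -0.02 in the control arm and -0.055 in the BPA arm. How often 1 arm exceeds the other over all probe sets was not counted.

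**Figure D3:**
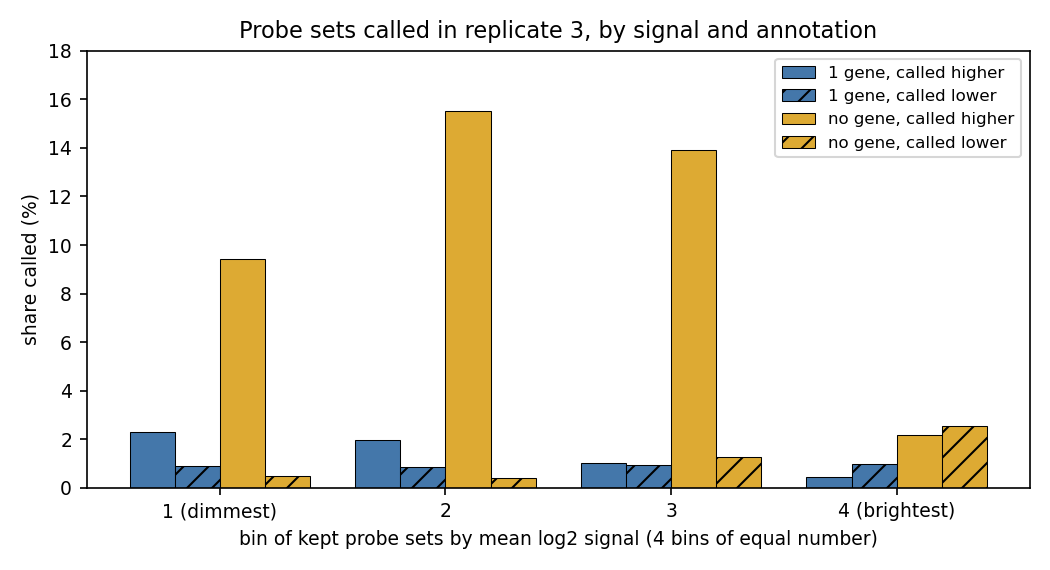
Share of kept probe sets called higher (plain bars) or lower (hatched) in replicate 3, in percent, by bin of mean log2 signal (4 bins of equal number) and by whether the probe set has 1 gene (blue) or none (yellow) in the annotation. In the 3 dimmer bins 9.44% to 15.5% of probe sets without a gene were called higher, and at most 2.31% in every other class of these bins.

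Probe sets of the same gene seldom shared a higher call. The 270 called probe sets with 1 gene belonged to 244 genes, of which 201 had other kept probe sets, and in 2 of those all kept probe sets were called. In 16 of the 244 genes 2 or more probe sets were called. The 422 kept probe sets of the 244 genes without a higher call had a median difference of 0.03. Of these, 18.5% lay above the other arrays without overlap (14.6% over all kept probe sets, called ones included). Leaving out the called ones lowers both figures. Among genes with lower calls, 91 of 160 had other kept probe sets. All kept probe sets were called in 9 of the 91, and 2 or more in 16 of the 160. The 145 without a lower call had a median of -0.34, with 56.6% below all other arrays (21.3% over all kept probe sets, called ones included). For 73 of the 244 genes and 98 of the 160 the brightest probe set was the called one. Several genes named below show the split. The other kept probe set of Odr4 differed by 0.68 and that of Aldh1a3 by 0.62, those of Vapb by -0.45 and -0.08, those of Taf1d by 0.08 and 0.13, and those of Nectin3, a cell adhesion protein, ranged from -1.49 to 1.39.

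A few probe sets were separated widely between the sides. At 13 of the kept probe sets, 8 higher and 5 lower, at least 2 log2 units separated the nearest arrays of the 2 sides. The widest was 1433438_x_at, which has no gene in the annotation. It read 5.51, 5.36 and 13.45 in controls and 5.30, 5.36 and 12.52 in BPA samples, a gap of 7.01. The other 3 probe sets without a gene among the 13, 1456182_x_at, 1456456_x_at and 1459670_at had gaps of 6.77, 5.09 and 2.23. At 1433438_x_at, 1456182_x_at and 1456456_x_at, all 4 arrays of replicates 1 and 2 read below their array medians, at 4.15 to 5.66. Both replicate 3 arrays were among strong signals there. At these 3 probe sets and 1459670_at, the arrays of replicates 1 and 2 lay below the signal filter. They passed it only through the replicate 3 signals, and how far the counts of 8 and 5 depend on the filter was not tested.

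Genes of the major histocompatibility complex, whose alleles differ between mouse stocks, stood among these in both directions. H2-Ea, the alpha chain of the class II E molecule, which some mouse haplotypes do not make, read 7.57, 7.41 and 11.55 in controls and 7.33, 7.31 and 11.18 in BPA samples at 1 probe set. Its difference was 3.96 ± 0.12 (SE) there and 2.20 ± 0.12 (SE) at the brighter probe set. H2-Eb1, its beta chain partner, was called higher at 1.34 ± 0.20 (SE). H2-D1, a class I heavy chain, was lower: 1 probe set read 10.11, 10.11 and 6.09 in controls and 11.18, 11.01 and 7.58 in BPA samples, a difference of -3.77 ± 0.14 (SE). Of 7 kept H2-D1 probe sets, 3 were called lower (-2.97 to -3.77) and the other 4 differed by -0.59 to -0.89. H2-Aa, the alpha chain of class II A, gave 0.66, 0.12 and -1.67 at its 3 probe sets. Class II genes are expressed by antigen-presenting cells. The macrophage and myeloid list, 24 genes measured, had a median of -0.22 with H2-Eb1 its only called member (0.619% called higher over all genes). The part of such cells in these differences was not tested. Class I and class II genes are close relatives within their classes, so probe sets can read more than 1 gene, and the genotype of the mice was not measured here.

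Other genes with such gaps were H2bc18, a histone H2B gene, Vps41, a lysosomal tethering protein, and Slco1a6, an organic anion transporter, all higher. H2bc18 read 6.08, 5.96 and 8.79 in controls and 6.01, 6.003 and 9.61 in BPA samples. Its difference of 3.18 ± 0.19 (SE) was the largest positive value of any gene's brightest kept probe set. H2bc18 lay below the signal filter on every array of replicates 1 and 2 and passed it only through its replicate 3 signal. Slco1a6 read 9.52, 9.46 and 11.86 in controls and 8.997, 9.04 and 12.09 in BPA samples, without overlap. Ing3, a subunit of a histone acetyltransferase complex, read 9.03, 9.17 and 6.12 in controls and 9.08, 8.81 and 6.42 in BPA samples, and so was lower. Serpini1, a serpin of neurons and endocrine cells, was lower as well, at -2.40 ± 0.12 (SE).

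**Figure D4:**
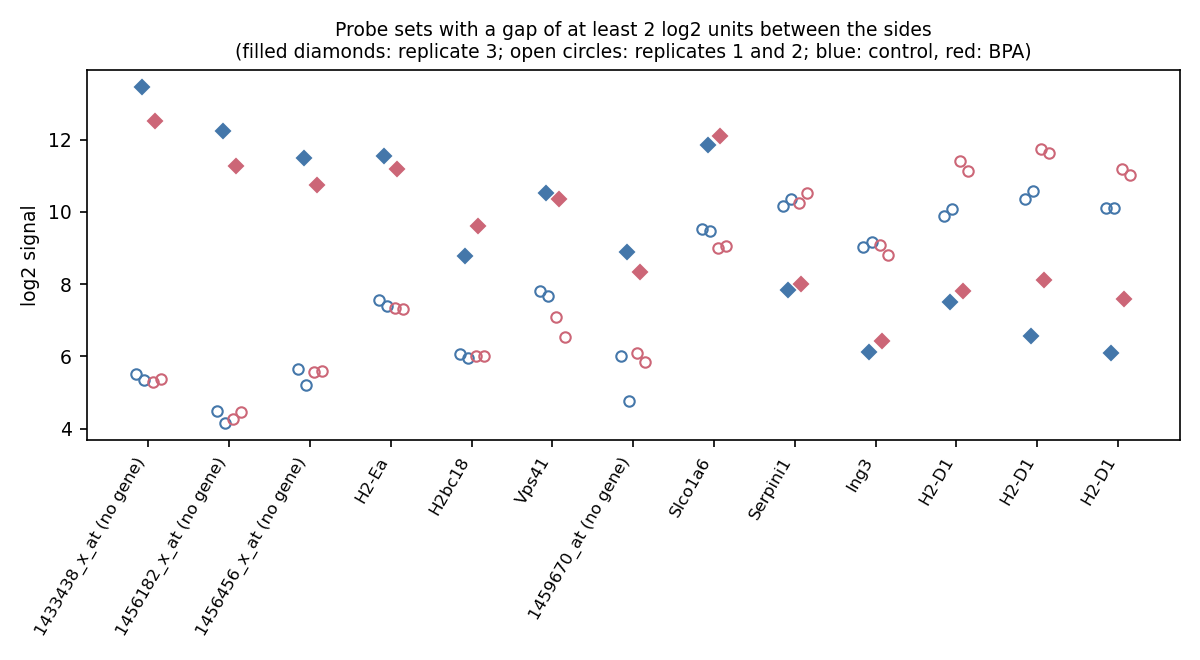
Log2 signal on each array for the 13 kept probe sets with at least 2 log2 units between the nearest arrays of the 2 sides; filled diamonds are replicate 3, open circles replicates 1 and 2, blue control and red BPA. At 8 the diamonds lie above all circles and at 5, among them 3 of H2-D1, below.

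Acinar cell genes were lower in replicate 3 in both treatments. Of 54 listed, 40 were measured and all 40 were lower in both arms, against 43.6% of all genes; the median difference was -1.81, with -2.20 in the control arm and -1.34 in the BPA arm. Both replicate 3 arrays lay below all others at 32 of the 40 (22.6% over all genes), and 28 were called lower (0.831% over all genes), which is 28 of the 98 genes called lower. Without these genes' probe sets 168 of the 211 lower probe set calls were left. Relative to the mean of each gene, the 40 genes averaged 0.12, 0.93 and -1.69 in controls 1, 2 and 3 and 1.55, -0.175 and -0.73 in BPA 1, 2 and 3. BPA 1 was thus the highest array and control 3 the lowest, and BPA 2 was nearer to BPA 3 than to BPA 1. Fewer acinar cells and less enzyme RNA per acinar cell cannot be told apart in these samples.

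Prss3, a trypsinogen, had the largest difference, -3.57 ± 0.74 (SE), from signals of 7.72, 8.95 and 4.12 in controls and 10.17, 7.44 and 5.87 in BPA samples. Cckar, the receptor through which cholecystokinin stimulates enzyme release, read 7.94, 9.10 and 5.37 in controls and 9.84, 7.41 and 5.95 in BPA samples (-2.91 ± 0.64, SE). Both were lowest on the replicate 3 arrays, while BPA 1 and BPA 2 differed from each other by more than 2. Among digestive enzymes, the lipases Pnliprp2 (-2.30) and Cel (-2.05), the phospholipase Pla2g1b (-2.35) and the amylase Amy1 (-2.21) were called lower. Secretory granule and lumen proteins followed, with Gp2 at -2.47, Dmbt1 at -2.81 and the serpin Serpini2 at -2.37. Ptf1a, the transcription factor that specifies acinar cells, read 8.31, 8.34 and 6.33 in controls and 9.76, 7.29 and 6.49 in BPA samples (-2.02 ± 0.58, SE). Enzymes near the top of the scale differed less, such as Cela3b at -1.02, Ctrl at -1.13 and Prss2 at -0.91. Reg3a and Reg3g, lectins induced by pancreatic stress, differed by -3.02 and -2.69 but overlapped, since control 1 read 6.72 and 6.19, within the range of the replicate 3 arrays. Bhlha15, another acinar transcription factor that endocrine cells also express, differed by -0.21 and overlapped.

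The TATA box, TATAAA, is a core promoter element of many highly transcribed tissue genes. Its letters were counted on either strand anywhere in the 250 bases before the start, so a match need not be a core element. They stood in 10 of 33 promoters of measured acinar genes (30.3%) and in 5 of 22 of those called lower (22.7%), against 6.3% of all 9536. The match in Serpini2, 1 of the 5, lay far from the start, at -244, and on the other strand. The last 60 bases before the start (RefSeq, GRCm38.p6, gene's strand) are shown for the 4 called genes that hold it there, with TATAAA in capitals, to set this short core element against the clustered CCAAT boxes of the mitosis genes.

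Prss3, chr6:41377614-41377673, minus strand: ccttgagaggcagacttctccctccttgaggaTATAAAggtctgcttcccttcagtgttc

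Gp2, chr7:119459273-119459332, minus strand: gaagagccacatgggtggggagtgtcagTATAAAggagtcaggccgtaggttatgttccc

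Reg1, chr6:78425923-78425982, plus strand: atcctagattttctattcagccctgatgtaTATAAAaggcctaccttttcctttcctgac

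Cela1, chr15:100687921-100687980, minus strand: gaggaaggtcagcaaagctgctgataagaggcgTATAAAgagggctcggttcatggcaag

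Among the 73 genes called lower that had a promoter, 15.1% held TATAAA and 27.4% CCAAT, and among the 56 called higher 7.14% and 48.2%. The GC box GGGCGG stood in 38.4% and 39.3% of these, and in 59.5% of all. The E-box CACGTG stood in 6.85% of the lower, 7.14% of the higher and 8.45% of all.

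Other genes of large difference were mostly outside the mitosis and acinar lists. Tff3, a trefoil peptide of goblet cells that is on the duct list, read 6.09, 6.20 and 10.35 in controls and 6.49, 6.06 and 6.66 in BPA samples. Its mean difference of 2.29 ± 0.73 (SE) came from control 3, with arms of 4.20 and 0.38, as for the intestinal genes above. Tff3 lay below the signal filter on every array of replicates 1 and 2 and passed it only through its replicate 3 signal. Aldh1a3, a retinaldehyde dehydrogenase seen in stressed beta cells, was also highest on control 3, with 9.71 in control 3, 7.75 in BPA 3 and 6.54 to 7.35 in the others. Odr4, a membrane protein of receptor trafficking, was higher on both, with 10.89 and 9.12 against 7.09 to 7.23. Cfp, the complement regulator properdin (1.62), Sfi1, a centrosome protein (1.65), and Taf1d, a factor of RNA polymerase I (1.52), were also called higher. Among lower genes, Pdia2, a pancreatic disulfide isomerase (-2.64), Klk1b5, a kallikrein of the acinar list (-2.34), Itih4, an acute phase protein (-2.09), and Tex15, known from germ cells (-2.61), were called. Pdia2 and Itih4, which are not on the acinar list, had BPA 1 as their highest array, as the mean of that list did. Vapb, a membrane contact protein of the endoplasmic reticulum, read 10.60, 11.33 and 8.63 in controls and 11.09, 10.97 and 8.82 in BPA samples (-2.27 ± 0.20, SE).

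Some genes followed the division between sides more closely than their size alone shows. Ranked by the difference divided by its standard error over 6 arrays, Top2a (19.5), H2-Ea (18.2), H2bc18 (16.7), Slco1a6 (16.6) and Neat1 (16.4) led the higher genes. Rpgrip1, a ciliary protein (-14.9), Ddit4, an inhibitor of mTOR complex 1 induced by stress and glucocorticoids (-14.7), Rab39b, a small GTPase (-14.3), Nectin3 (-13), and Rbm47, an RNA-binding protein (-12.8), led the lower ones. The side was chosen on these same signals, so the ratio ranks genes and is no test. Top2a and H2bc18 lay below the signal filter on every array of replicates 1 and 2. Both passed it only through their replicate 3 signal. The other kept probe set of Rab39b differed by -0.60 and that of Rbm47 by 0.04, and neither was called. Ddit4 read 11.80, 11.85 and 9.94 in controls and 11.88, 11.54 and 10.01 in BPA samples, a difference of -1.79 ± 0.12 (SE). No acinar gene was among these 10, and the standard error of Prss3 was 0.74 against 0.10 for Top2a.

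Endocrine identity genes differed little. Over all genes 0.619% were called higher and 0.831% lower, so none or a single call in a short list says little. The 31 measured beta cell genes had a median of -0.05, of the size of the -0.06 over all genes, with none called at its brightest probe set. The largest were Nnat, an imprinted proteolipid (-0.89), and Trpm5, a cation channel (-0.71), both without overlap. Among 14 genes of other endocrine cells the median was -0.02, and Slc38a5, an amino acid transporter, was called lower at -1.18 ± 0.29 (SE). Exocytosis genes (34 measured) had a median of 0.01, with Pam, an enzyme that amidates peptide hormones, called lower at -1.01. Ion channels of excitability (28 measured) had a median of -0.04 but held calls in both directions, 2 higher and 1 lower. Cacna1a, a calcium channel pore subunit, read 7.74, 8.07 and 9.06 in controls and 7.21, 7.55 and 8.81 in BPA samples (1.29 ± 0.16, SE), and 1 of its other 2 probe sets was called too. Scn8a, a sodium channel subunit, was called higher at 1.01 and Cacna2d2, an auxiliary calcium channel subunit, lower at -1.25.

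Markers of other cells moved unevenly. Of 34 stellate cell and matrix genes the median was -0.12, with -0.23 in the control arm and 0.04 in the BPA arm. The replicate 3 arrays lay above all others at 5 and below them at 6 (12% and 22.6% over all genes). Called lower were 4 (0.831% over all genes): Col6a3, a collagen VI chain (-1.71), the small proteoglycans Lum (-1.65) and Dcn (-1.37), and Pdgfra, a growth factor receptor of fibroblasts (-1.09). Lum read 8.65, 8.59 and 6.70 in controls and 9.22, 8.65 and 7.55 in BPA samples. In contrast Pdgfrb, of pericytes and stellate cells, was higher without overlap (0.33), and Col1a1 differed by 0.09. Glia and nerve genes (21 measured) had a median of -0.35, which was -0.47 in the control arm and -0.03 in the BPA arm. Endothelial genes (22 measured) had a median of 0.11, with Sox17 at 0.69 and Aplnr at 0.62. Lymphocyte genes (9 measured) had a median of -0.02; Jchain, the immunoglobulin joining chain of plasma cells, read 10.05 in control 3 and 9.49 in control 1 against 7.08 to 7.20 in the rest. The defining fat and red blood cell markers Adipoq and Hba-a1 stayed between 4.08 and 4.67 on all arrays. How far each of these shares in the contrast was not tested.

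Stress and clock genes gave small medians with a few large members. Beside the calls named here, 0.619% of all genes were called higher and 0.831% lower. The 24 glucocorticoid and fasting response genes had a median of 0.15, with Mt2, a metallothionein (1.17), and Per1, a clock gene induced by glucocorticoids (1.04), called higher and Ddit4 called lower. Per1 read 9.35, 9.15 and 10.05 in controls and 8.62, 9.28 and 10.23 in BPA samples. Among 20 clock genes, which share Per1, the median was 0.12. Hypoxia genes (19 measured) had a median of -0.21, with 8 below all other arrays and 1 above (22.6% and 12% over all genes), led by Higd1a (-0.62) and Adm (-0.58). Sterol and fatty acid synthesis genes (27 measured) had a median of -0.12 with 10 below and none above, beside the same shares over all genes, led by Scd1, a fatty acid desaturase (-0.71), and Nsdhl, of cholesterol synthesis (-0.70). Inflammation and chemokine genes (20 measured) had a median of -0.27, and Steap4, a metalloreductase, was called lower (-1.10). Splicing factors (45 measured) had a median of 0.09, with Son, a nuclear speckle protein, at 0.92 on its brightest probe set and -0.20 to -0.14 on its other 4. Among 47 chromatin regulators Tet2, which oxidises methylated cytosine, was called higher (1.08), while its other probe set differed by 0.14.

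**Figure D5:**
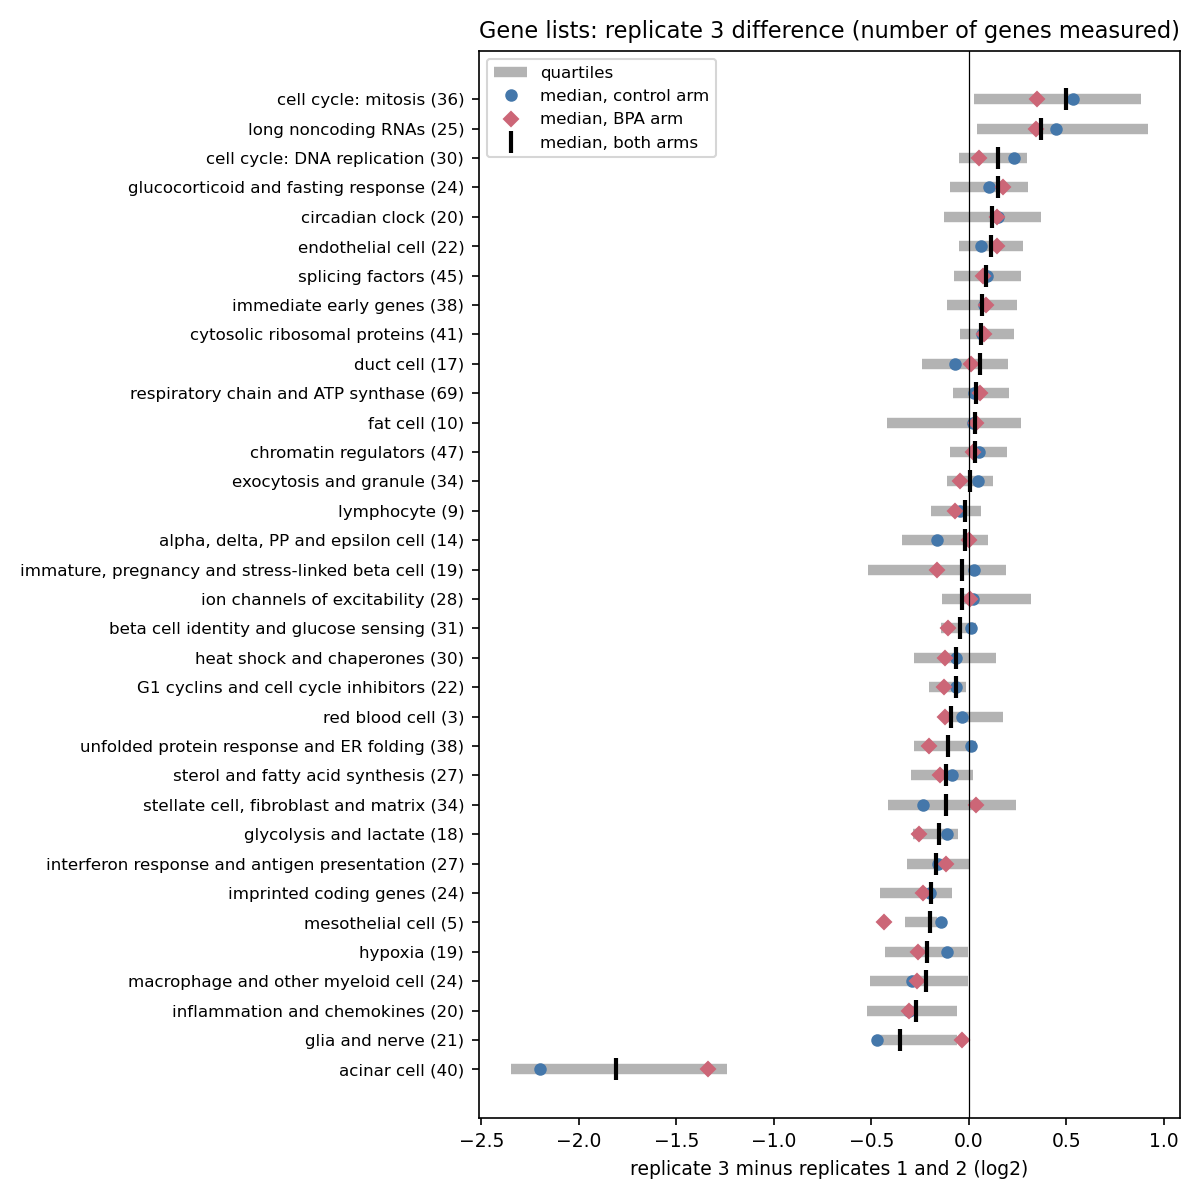
Median log2 difference of replicate 3 from replicates 1 and 2 for each gene list (black bar), with its value in the control arm (blue circle), in the BPA arm (red diamond) and the quartiles over genes (grey); the number of measured genes is in parentheses. The acinar list lies at -1.81, and the mitosis (0.50) and long noncoding RNA (0.37) lists lie farthest to the right.

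Because each side holds both treatments, the side could be set apart when BPA was compared with control. With the side as a covariate, no probe set passed an adjusted p of 0.05 (0%; limma, Benjamini-Hochberg), the smallest being 0.128. Unadjusted p lay under 0.05 for 3243 probe sets, 1433 higher and 1810 lower after BPA. Without the side, again none passed (0%), the smallest adjusted p was 0.655 and 1458 were under 0.05 before adjustment. The median standard error was 0.122 with the side and 0.149 without it, while the estimates are the same in both fits. The side was chosen as the main axis of variation in these signals, so a smaller error and more low p-values with it follow from that choice. Prrc2c, an RNA-binding protein, read 10.45, 10.38 and 10.07 in controls and 9.48, 9.22 and 9.20 in BPA samples. Its difference of -1.002 had an SE of 0.11 with the side and 0.15 without, and an adjusted p of 0.128 and 0.655. Tceal8, a transcription elongation factor-like protein, read 10.52, 10.60 and 10.29 in controls and 11.18, 11.18 and 10.90 in BPA samples, a difference of 0.62 with the same adjusted p-values. Both had groups without overlap and neither passed. The other genes of smallest p were Med27 (0.79) and Uqcrh (0.78), with Sp4 (-0.82) and Srpk2 (-0.73) in the other direction.

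The difference between the arms was tested as an interaction of side and treatment among the kept probe sets, and none passed (0%; limma, smallest adjusted p = 0.132, 920 under 0.05 before adjustment, 495 higher and 425 lower in the BPA arm). The smallest p of a gene belonged to Tff3, whose difference in the BPA arm minus that in the control arm was -3.82 ± 0.31 (SE; adjusted p = 0.144). Fcgbp, a mucus protein of goblet cells, read 9.85 on control 3 and 7.17 to 7.44 on the other arrays (adjusted p = 0.314), and Apoa1, an apolipoprotein of liver and intestine, 9.71 against 6.51 to 7.12 (adjusted p = 0.483). All 3 were thus high on control 3 alone. Tff3, like Gdpd3 named below, lay below the signal filter on every array of replicates 1 and 2. Both passed it only through their replicate 3 signal, and their p-values are to be read with that limit. The same Tff3 probe set and other Apoa1 probe sets were among those that passed the test without the filter, described above. In the opposite direction, Gdpd3, a phosphodiesterase, was high on BPA 3 alone, at 8.37 against 6.38 to 6.62 (adjusted p = 0.63). Lbp, the lipopolysaccharide-binding protein, was low on control 3 alone, at 6.85 against 9.50 to 10.67 (adjusted p = 0.791), and Pde5a, which degrades cyclic GMP, differed by 1.31 (adjusted p = 0.82).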

How the data were processed

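Islet RNA (1 µg) was labelled and hybridised to 6 Affymetrix arrays, 3 per group. The authors deposited log2 signals per probe set; MAS5 is named in the submitters' processing notes, and its version and scaling are not given in the sources used here. Arrays have no read depth, and their number limits the precision. Samples were grouped by their titles. Array control probe sets were left out, probe sets with a mean above the median of all were kept, and genes were named through the platform annotation (34945 probe sets with 1 gene, 932 with several, 9160 with none; 34741 of the first matched RefSeq). Replicate 3 minus the others was fitted with limma 3.58.1 (R 4.3.3), treatment as covariate, with no p-value, since the side was picked on these signals; calls required no overlap and a difference of at least 1. Treatment and interaction used lmFit and eBayes with trend and Benjamini-Hochberg adjustment over all kept probe sets. The code was tested on simulated data. The members and all lists were chosen with earlier results of these data known. Named genes are the 15 called genes per direction with the largest difference, the 5 markers, the largest members of each list (up to 6 called, else 2), the 5 per direction most like the contrast and the 3 per direction of smallest p in tests that passed none; other genes were chosen after their values were seen. Alternatives were other scalings, filters, thresholds, single arms and leaving out each array. The titles call the replicates biological, but which animals and how many stand behind an array is not stated. P-values therefore measure the spread between these samples.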

Additional observations from a re-analysis of the deposited data

How the results depend on the processing

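Each of 31 genes was refitted under the alternatives in which its probe set passed the filter. The sign of its replicate 3 difference was kept in all 413 such refits, and 41 refits moved the value by more than the spread between replicates. All 31 had been called, so both replicate 3 arrays lay beyond every other array. With an array left out, in single arms, without the treatment covariate or under other filters, the sign therefore could not change. Only the other scalings could have changed it, so the 413 are mostly no test of the sign. Of 35 lists, 20 kept the sign of their median throughout, among them mitosis, DNA replication, long noncoding RNAs and acinar genes, and 512 of 560 list medians kept it. The median difference of all kept probe sets was -0.04 as deposited, -0.11 after median centring and 0.01 after cyclic loess. The share of higher among all calls was 72.7% as deposited and 66.1% to 76.2% under other scalings, but 54.9% under the stricter signal filter (75th percentile) and 53.9% without BPA replicate 3. The cause of these shifts was not tested.

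Higher calls numbered 562 as reported, 139 under the stricter signal filter, 343 in control arrays and 1031 in BPA arrays alone, 1492 at a threshold of 0.5, 121 at 1.5, 270 among probe sets with 1 gene (an alternative chosen after seeing the data) and 320 to 809 with each array left out. Lower calls numbered 211, 114 with the stricter filter, 1155 at 0.5, 78 at 1.5 and 194 to 274 with each array left out. Fewer arrays make the no-overlap rule easier to meet, so counts from single arms or with an array left out compare only loosely with the others. The mitosis median of 0.50 became 0.43 after median centring, 0.34 with no filter and with the brightest probe set of all, 0.11 with the stricter filter, 0.35 in BPA arrays alone and 0.27 (without control 3) to 0.54 with each array left out. The long noncoding RNA median of 0.37 became 0.47 after quantile normalization and 0.52 with the stricter filter. The DNA replication median of 0.15 became 0.23 in control and 0.0421 in BPA arrays alone and 0.0532 to 0.277 with each array left out, the lowest without control 3 and the highest without BPA 3.

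For BPA with the side as covariate, the stricter filter passed 1 probe set, of H2-D1, and leaving out each array passed 0 to 2, the 2 without control replicate 2 (Jchain and 1427660_x_at). The interaction passed 24 with no filter; it could not be fitted without control 3 or BPA 3. The labels share replicate numbers across treatments. Deviations of same-numbered arrays correlated at 0.476, 0.078 and 0.706 for replicates 1, 2 and 3, and control 2 correlated better with BPA 1 (0.427) than with BPA 2, so the numbers were not taken as pairs. With a replicate block in the BPA comparison 0 probe sets passed (limma, smallest adjusted p = 0.19, 3042 under 0.05 before adjustment, against 1458 without the block).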

Other observations

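BPA 1 also stood apart within its own side. It lay at least 2 log2 units above the other 5 arrays at 21 probe sets and at none below. Reg3a, a lectin of injured pancreas, read 13.40 on BPA 1 and 5.94 to 11.02 on the others, and Lyz2, a macrophage lysozyme, 10.77 against 8.08 to 9.22. The 20 inflammation and chemokine genes averaged 0.60 on BPA 1, relative to each gene's mean, against -0.30 to 0.03 on the other arrays. The side without replicate 3 is thus itself uneven for these genes.

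The array's control probe sets for mouse B1 and B2 repeats, interspersed elements found in many introns and untranslated stretches, were not part of the contrast. The B1 probe set read 11.90, 11.51 and 11.80 in controls 1, 2 and 3 and 10.92, 10.54 and 11.85 in BPA 1, 2 and 3, so BPA 3 was at the level of the controls and the other BPA arrays were lower. The 2 B2 probe sets were higher in replicate 3 by 0.37 and 0.20. None of these values was tested.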
